A study of Mesocricetus auratus with 14 samples.

Results

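The drug-metabolizing enzymes of phase I and phase II were followed in hamster liver as a set of 55 genes, out of 10023 genes with a symbol in the authors' normalized table. They were chosen by symbol alone: cytochromes P450 (20 genes), flavin-containing monooxygenases (FMO, 6), carboxylesterases (CES, 5), UDP-glucuronosyltransferases (UGT, 3), sulfotransferases (SULT, 4) and glutathione transferases, soluble and microsomal (GST and MGST, 17). Of the P450s of bile acid and cholesterol synthesis, Cyp7a1, Cyp7b1, Cyp8b1, Cyp27a1 and Cyp51 were left out, while Cyp39a1 was kept. The symbols are those of the authors' table; 13 of the 55 also stand in the RefSeq gene table of the hamster assembly BCM_Maur_2.0. No gene named Cyp1a1 and none of the Cyp2b subfamily was among the 55, and genes of these families without a symbol were not analysed here.

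Liver RNA came from Syrian golden hamsters (Mesocricetus auratus), and every sample was labelled as fed a high-fat diet. Of the 14 samples, 7 were labelled control and 7 carried the treatment label DC371739, the code name of a compound. The sources used here do not state age, sex, strain, dose, route, duration or what the controls received. The labels do not state that each sample was a separate animal, so p-values measure only the spread between these samples, which may be technical. Libraries held 13672589 to 23948628 counts.

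Total counts were highest, 22152239 to 23948628, in DC371739 replicate 7 and control replicates 6 and 7; the other 11 libraries held 13672589 to 16710097. Of the 55 genes, 8 were higher in all 3 of these deep libraries than in any of the other 11, among them Sult1a1, Sult1b1, Sult1c2 and Ugt1a1, and 1, Gstm6, was lower in all 3. Over all 12166 genes tested, 28% lay outside the range of the other 11 in this way (13.8% above, 14.2% below). Such genes were thus common beyond the set. They lay about equally above and below there. In the set, the 8 of 55 above were a share near the 13.8% of all genes. The 1 of 55 below was a smaller share than the 14.2% of all genes. With 2 controls and 1 treated sample, the deep class was too small to be compared by itself. Results are given over all 14 libraries and also over the 11 shallower ones (5 control, 6 DC371739).

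The liver samples carried the RNA of hepatocytes: 9 of 10 hepatocyte markers, such as albumin and transthyretin, were in the table and together took 111161 to 147620 counts per 1e+06 library counts (CPM). None of 10 markers of gut, kidney, pancreas or fat was in that table. It holds only 10023 of the 22283 counted genes, so this absence does not show that such tissue was missing.

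Lipophilic drugs and other foreign compounds are cleared by the liver in steps. Phase I enzymes, chiefly the haem-containing cytochromes P450 of the endoplasmic reticulum with their electron donor Por, but also FMOs and carboxylesterases, oxidize or hydrolyse the molecule. Phase II enzymes couple it, or its product, to glucuronic acid (UGT), sulfate (SULT) or glutathione (GST), which makes it water-soluble and ready for export. Their genes are classical targets of the receptors AHR, CAR (Nr1i3) and PXR (Nr1i2) and of the factor NRF2. Many P450s are known to be expressed mainly by hepatocytes around the central vein.

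All 55 genes passed the filter on low counts, and together they took 2.88% to 3.72% of the counts of a library. The share had a median of 3.34% in control libraries and 3.13% in DC371739 libraries, and the groups overlapped. Cyp2e1, the ethanol-inducible P450, was the most abundant per length, at 6249 ± 902 FPKM in control and 6043 ± 699 in DC371739 samples (SD, n = 7 each). FPKM is the count per length of gene, scaled by 1 constant per library as set by the authors. That constant is not the total count of the library used here. Cyp2e1 alone took 1.02% to 1.36% of the counts. It was followed by Gstm2 (3464 ± 868 FPKM in control), the microsomal transferase Mgst1 (2478 ± 379), Cyp3a13 (1942 ± 240), the carboxylesterase Ces1d (1334 ± 159.8), Gstm1 (1195 ± 220) and Cyp1a2 (905 ± 194). In that order the mean ± SD of neighbours overlapped for Gstm2 and Mgst1, Mgst1 and Cyp3a13, Ces1d and Gstm1, and Gstm1 and Cyp1a2. It did not for Cyp2e1 and Gstm2 or Cyp3a13 and Ces1d. These SDs are spreads between libraries, and the genes were measured in the same libraries, so overlap does not make their order uncertain. Within every control library Gstm2 stood above Mgst1, Mgst1 above Cyp3a13 and Gstm1 above Cyp1a2, while Ces1d and Gstm1 changed places between libraries. Cyp4a30b, Gstz1 and Gsta3 completed the 10 most abundant; the level of Gsta3 rests on an exon length of only 399 bases. At the low end, Gstm7 (2.27 ± 0.48 FPKM), Cyp27b1 (1.66 ± 0.30), Fmo6 (0.96 ± 0.23), Cyp1b1 (0.64 ± 0.28) and Cyp26b1 (0.51 ± 0.20) were the 5 rarest transcripts in control samples.

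**Figure D1:**
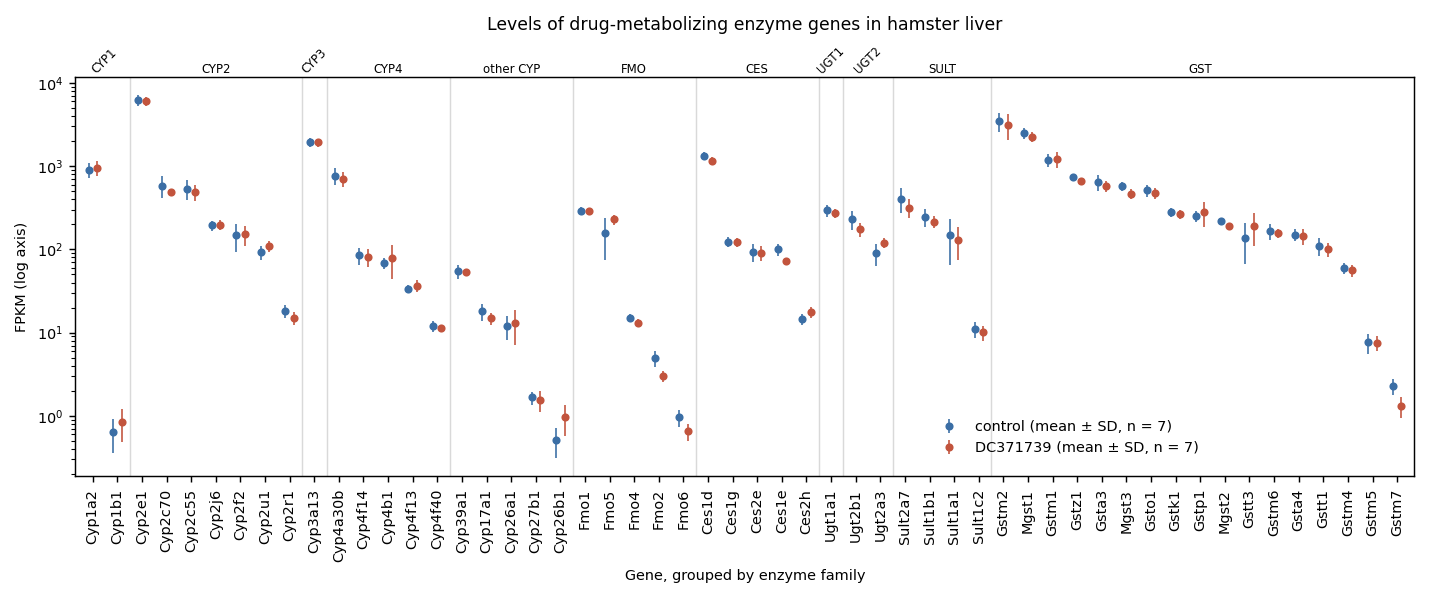
FPKM (log axis) of the genes by enzyme family, ordered within a family by mean level, in control (blue) and DC371739 (red) samples; points are means and bars SD, n = 7 each. Levels run from 6249 FPKM for Cyp2e1 to 0.51 for Cyp26b1 in control, and for most genes the bars of the groups overlap.

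The comparison of DC371739 with control asked whether transcripts of this enzyme system differed after treatment. Most of it, and in particular its abundant members, did not pass the test. Over all 14 libraries 2 of 55 genes passed, Fmo2 and the carboxylesterase Ces1e, and both fell; none rose. In whole tissue, fewer cells of a type and less RNA per cell cannot be told apart. That is 3.64% of the set, beside 1.85% of the 12166 genes in the edgeR quasi-likelihood fit (adjusted p under 0.05; 1.24% higher, 0.608% lower). In the authors' deposited table the same 2 of 55 have an adjusted p under 0.05. Unadjusted p was under 0.05 for 14 of the 55 (20.4% of all genes). Log2 fold changes were negative for 40 of the 55 and positive for 15, with a median of -0.09; over all genes 53.4% were negative and the median was -0.02. For 43 of the 55 the estimate lay within 0.3 of 0 on the log2 scale, and for 31 the whole 95% interval lay within 0.5.

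Over the 11 shallower libraries 10 of the 55 passed, 5 higher and 5 lower. This share of 18.2% lay beside 21.5% of all 12249 genes tested (11% higher, 10.5% lower), a share near that of genes at large. The higher genes were Fmo5, Ugt2a3, Ces2h, Cyp26b1 and Cyp1b1, and the lower ones Ces1e, Fmo2, Gstm7, Mgst2 and Mgst3. The median log2 fold change of the 55 was -0.04 (34 negative, 21 positive), against 0.01 over all genes (49.3% negative). With a term for library class 8 passed (14.5%, beside 12.3% of all genes; 5.62% higher, 6.7% lower): these 10 without Cyp26b1 and Cyp1b1. DESeq2 over all 14 libraries called 5, Cyp26b1 higher and Ces1e, Fmo2, Gstm7 and Mgst3 lower (6.29% of all genes; 3.83% higher, 2.45% lower). With limma-voom and sample quality weights 13 passed, 6 higher and 7 lower (22.5% of all genes; 11.6% and 10.9%), and with the replicate number as a block 0 of 55 passed (14 at an unadjusted p under 0.05; 0.0658% of all genes). Since these fits reuse most of the same libraries, they are no independent support. No gene of the set was separated between the groups over all 14 libraries (0.699% of all genes were; 0.296% higher, 0.403% lower). Over the 11, Fmo5 and Ugt2a3 were higher and Gstm7 lower in every DC371739 library than in any control library (9.38% of all genes were separated, 4.09% higher and 5.29% lower).

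**Figure D2:**
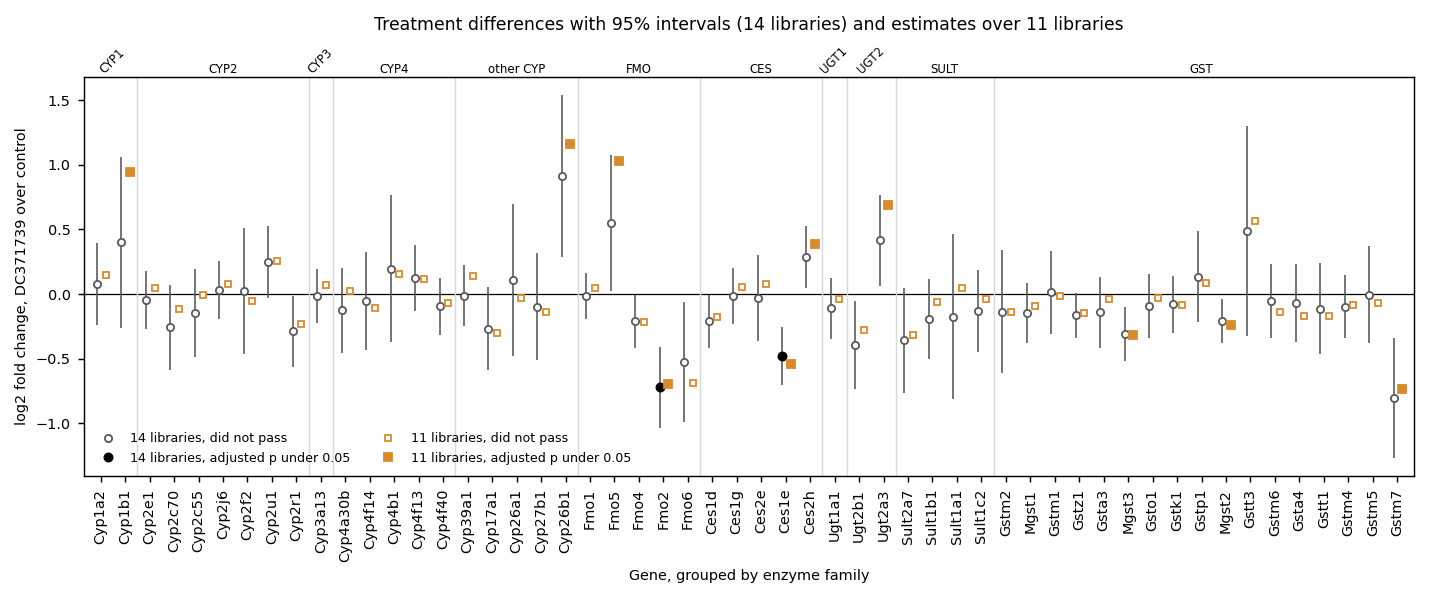
Log2 fold change of DC371739 over control for the genes by family: circles with 95% intervals are estimates over 14 libraries (filled where the adjusted p was under 0.05), squares over the 11 shallower libraries. Filled circles stand at Fmo2 (-0.72) and Ces1e (-0.48), while the abundant Cyp2e1, Cyp3a13 and Gstm1 lie within 0.1 of 0.

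Among the P450s, 0 of 20 passed over all 14 libraries with edgeR (1.85% of all genes) and 1 (Cyp26b1) with DESeq2 (6.29%). Of the 20, 2 had an unadjusted p under 0.05 (20.4% of all genes) and 11 a negative estimate (53.4%). Cyp1a2, the classical AHR target of hepatocytes, ran from 929 to 1755 CPM in control libraries, with a median of 1342, and from 1061 to 1792 CPM with a median of 1347 in DC371739 libraries. The groups overlapped almost entirely, and the log2 fold change was 0.08 (SE 0.15, 95% interval -0.24 to 0.40). Cyp1b1, another AHR target, which is expressed mainly outside hepatocytes, ran from 1.14 to 3.58 and from 1.45 to 4.65 CPM. Its highest control values, 3.46 and 3.58 CPM, were those of the 2 deep controls, and its lowest DC371739 value, 1.45 CPM, was that of the deep replicate 7. Over the 11 shallower libraries Cyp1b1 rose by 0.94 (SE 0.26, adjusted p = 0.0211), while over all 14 the change was 0.40 (adjusted p = 0.486). Leaving out control 3, control 5 or DC371739 replicate 6 ended that call (adjusted p up to 0.0569).

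Cyp3a13, the only member of the Cyp3a subfamily here, the subfamily induced through PXR, ran from 2361 to 3266 CPM in control and from 2105 to 3015 CPM in DC371739 libraries. Its log2 fold change of -0.02 had a 95% interval of -0.23 to 0.20. Cyp2e1 ran from 10172 to 14184 and from 9633 to 13906 CPM, with an interval of -0.27 to 0.18. Both groups covered nearly the same range for either gene. Cyp4a30b, of the fatty acid hydroxylating Cyp4a subfamily that PPARA induces, had an estimate of -0.13 (interval -0.46 to 0.21). The signs of Cyp3a13 and Cyp2e1 flipped over the 11 libraries, to 0.07 and 0.05.

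The other Cyp2 and Cyp4 genes were spread around 0. Cyp2r1, the microsomal vitamin D 25-hydroxylase, was at -0.29 (interval -0.56 to -0.01, adjusted p = 0.213), with 23.2 to 39.3 CPM in control and 20.4 to 31.8 CPM in DC371739 libraries. Cyp4f13 stood at 0.13 (SE 0.12). Cyp2c55 and Cyp2c70, which lie 653023 bases apart on scaffold KB708127.1, had estimates of -0.14 and -0.26; neither passed. Cyp4b1 varied most among treated samples of all P450s: it was at 36.0 CPM in DC371739 replicate 2 and at 205 in replicate 4, a 5.70-fold range, against a 1.46-fold range over the controls.

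Of the P450s outside the drug-metabolizing families, Cyp26b1, which inactivates retinoic acid, had the largest estimate. It ran from 0.744 to 2.22 CPM (median 1.22) in control and from 1.32 to 4.48 CPM (median 2.53) in DC371739 libraries, and all 7 DC371739 values lay above the control median although the ranges overlapped. Over all 14 libraries the log2 fold change of 0.91 (SE 0.29) had an adjusted p of 0.0946. Over the 11 shallower ones Cyp26b1 rose by 1.16 (SE 0.28, adjusted p = 0.0114), and it passed whichever of those 11 was left out. In liver Cyp26b1 is known from stellate cells rather than hepatocytes. The 12 stellate and fibroblast markers had a median log2 fold change of 0.41 over all 14 libraries (10 of 12 positive, 0 passed). An unadjusted p under 0.05 was found for 4 of the 12 (20.4% of all genes). Over the 11, where Cyp26b1 passed, 2 of the 12 rose (11% of all genes) and the median of all 12 was 0.50. Their summed level was 272 to 392 CPM in control and 342 to 545 CPM in DC371739 libraries. Their part in the Cyp26b1 difference was not tested. Its relative Cyp26a1, the form expressed in hepatocytes, was at 0.11 (SE 0.27), and Cyp39a1, an oxysterol hydroxylase, at -0.01 (interval -0.25 to 0.22).

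Of the 6 FMO genes, 1 fell over all 14 libraries (0.608% of all genes) and 5 had a negative estimate (53.4%). Over the 11, 1 rose and 1 fell (11% and 10.5% of all genes). Fmo2, known best as the FMO of lung, is a minor transcript here: it ran from 5.98 to 9.92 CPM (median 7.84) in control and from 4.27 to 6.20 CPM (median 4.48) in DC371739 libraries. Every one of the 7 DC371739 values was under the control median, and the overlap came from DC371739 replicate 5 at 6.20 CPM and controls 1 and 7 at 5.98 and 6.16 CPM. Fmo2 fell by 0.72 on the log2 scale (SE 0.14, adjusted p = 0.0236), and by 0.69 over the 11 libraries (adjusted p = 0.00716). The call over 14 libraries was lost when control 2, 3 or 5 or treated replicate 2, 3 or 6 was left out (adjusted p up to 0.0640); over the 11 it held whichever was left out.

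Fmo2 lies in a run of FMO genes on scaffold KB708154.1, in the coordinates of the count table (the sources used here name no build): Fmo4 (11627344 to 11650645), Fmo1 (11672853 to 11699492), Fmo2 (11715453 to 11734533) and Fmo6 (11748250 to 11765163), all on the minus strand. Their neighbouring gaps are 13716 to 22207 bases. The abundant Fmo1, next to Fmo2, ran from 610 to 801 and from 630 to 759 CPM and had a log2 fold change of -0.02 (interval -0.19 to 0.16). Fmo6, on the other side of Fmo2, was rare, at 0.856 to 1.68 CPM and 0.589 to 1.03 CPM, with an estimate of -0.53 (SE 0.21, adjusted p = 0.176). Fmo4 stood at -0.21 (adjusted p = 0.215). Differences between neighbours were not tested.

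Fmo5, which acts as a Baeyer-Villiger oxygenase rather than as a typical FMO, lies elsewhere (KB708292.1, 814573 to 837013). In the shallower libraries it ran from 67.6 to 113 CPM in 5 controls and from 155 to 232 CPM in 6 DC371739 samples, with no overlap. Over these 11 it rose by 1.03 (SE 0.14, adjusted p = 0.000870), the smallest p of the set in that fit, and it passed whichever of them was left out. The 2 deep controls, however, stood at 189 and 264 CPM, within and above the range of the treated samples, and the deep DC371739 replicate 7 at 196 CPM. Over all 14 libraries the change was therefore 0.55 (SE 0.24, adjusted p = 0.211), and with the class term 0.80 (adjusted p = 0.0187). An interaction of treatment with library class, tested over all genes, gave -1.23 (SE 0.34, adjusted p = 0.221). Of 55 genes, 4 had an unadjusted p under 0.05 for this interaction and none an adjusted one (12.5% and 0.0164% of all genes). The deep treated arm of this test is 1 library, so it says little about whether the treatment effect differed between classes.

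Among the carboxylesterases, which hydrolyse ester drugs and also lipid esters, Ces1e ran from 138 to 217 CPM (median 169.8) in control and from 111 to 144 CPM (median 118) in DC371739 libraries. Every one of the 7 DC371739 values was under the control median. The overlap was made by DC371739 replicate 4, at 144 CPM, with control replicates 4 and 7, at 144 and 138 CPM. Ces1e fell by 0.48 (SE 0.10, adjusted p = 0.0326) over all 14 libraries and by 0.54 (adjusted p = 0.00339) over the 11. The call over 14 was lost without any 1 of control replicates 1, 2, 3 and 5 and DC371739 replicates 2, 3, 5 and 6 (adjusted p up to 0.0839); over the 11 it held in each case.

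Ces1e (KB708216.1, 1505473 to 1531574, plus strand) is followed after 5332 bases by Ces1d (1536907 to 1566609), a gene over 10 times as abundant per length. Ces1d ran from 1593 to 2257 and from 1371 to 1925 CPM; its estimate of -0.21 (SE 0.09) did not pass (adjusted p = 0.221). Ces1g, on the other side, was at -0.02 (interval -0.23 to 0.20). Reads shared between such close relatives cannot be assigned from these counts. Ces2h, of the second carboxylesterase family, ran from 30.9 to 48.1 CPM in control and from 44.0 to 63.6 CPM in DC371739 libraries, all 7 above the control median. Its change was 0.29 (SE 0.11, adjusted p = 0.160). Over the 11 libraries it rose by 0.39 (adjusted p = 0.0252), a call lost without control replicate 5 (adjusted p = 0.0557). Its neighbour Ces2e had an estimate of -0.03.

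**Figure D3:**
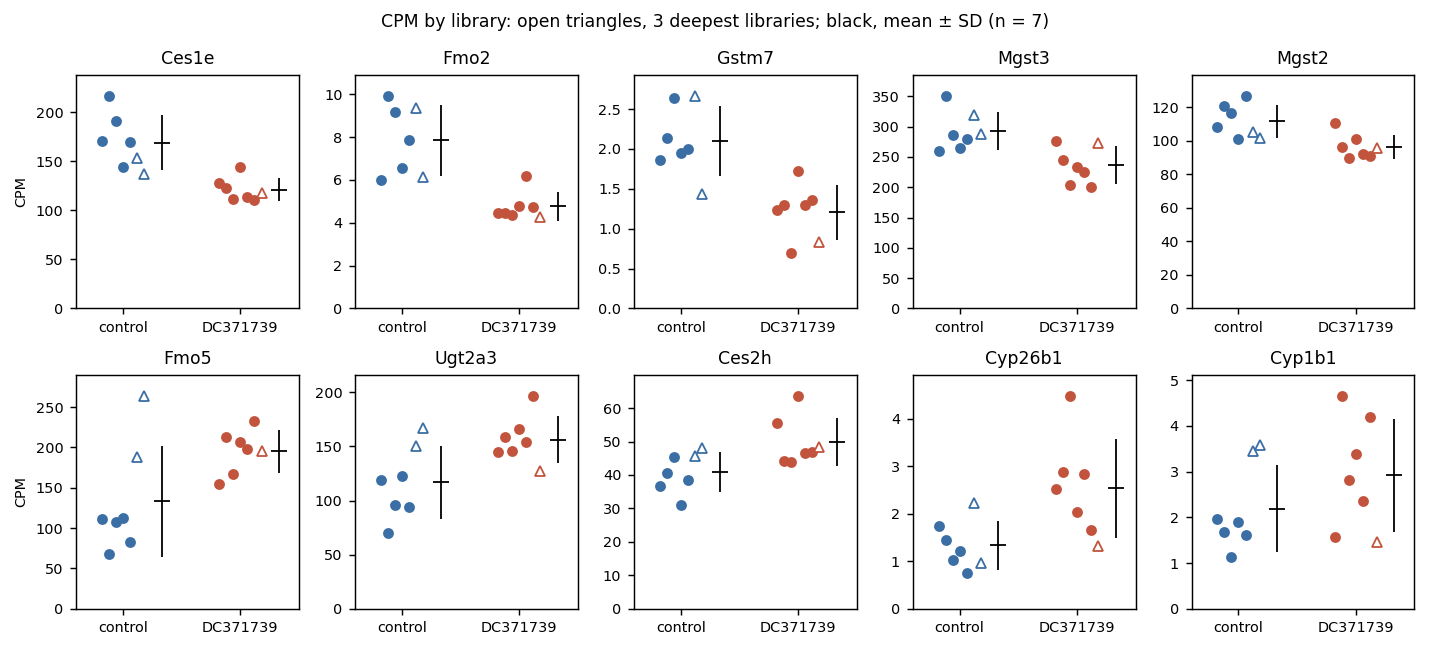
CPM of 10 genes in each library, control in blue and DC371739 in red; open triangles are the 3 deepest libraries, and black marks are mean ± SD (n = 7). In Fmo5 and Ugt2a3 the open triangles of the control group lie apart from the other controls, while in Ces1e they lie at the low end and in Fmo2 among them.

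Glucuronidation was represented by 3 genes. Ugt1a1, which conjugates bilirubin as well as drugs, ran from 1155 to 1699 and from 1116 to 1499 CPM, with a log2 fold change of -0.11 (interval -0.34 to 0.12). Its 3 highest libraries were the 3 deep ones. Ugt2a3 and Ugt2b1, of the family that handles bile acids, steroids and many drugs, had estimates of opposite sign. Ugt2a3 ran from 70.1 to 123 CPM in the 5 shallower controls and from 145 to 196 CPM in the 6 shallower DC371739 libraries, without overlap, and rose by 0.69 (SE 0.13, adjusted p = 0.00332), whichever of the 11 was left out. The deep controls were at 150 and 167 CPM, above the deep DC371739 library at 127 CPM. Over all 14 the change was 0.42 (SE 0.16, adjusted p = 0.162), and the interaction with library class was -1.002 (SE 0.29, adjusted p = 0.239). Ugt2b1, 712727 bases further along KB708139.1, ran from 251 to 510 and from 225 to 364 CPM; each of the 7 DC371739 values was under the control median, but the estimate of -0.39 (SE 0.16) did not pass in either fit (adjusted p = 0.173 and 0.128).

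All 4 sulfotransferases had a negative estimate over 14 libraries (53.4% of all genes) and none passed (1.85%). Over the 11, 3 were negative (49.3% of all genes) and 1 positive, and none passed (21.5% of all genes). Sult1a1 was at 0.05, Sult1b1 at -0.06, Sult1c2 at -0.04 and Sult2a7 at -0.32. Sult2a7, of the hydroxysteroid sulfotransferases, was at -0.36 (SE 0.19, adjusted p = 0.287), with 224 to 529 CPM in control and 203 to 384 CPM in DC371739 libraries. Sult1b1, a thyroid hormone and phenol sulfotransferase, was at -0.19 (adjusted p = 0.457). Sult1a1, the main phenol sulfotransferase, stood at 228 CPM in control replicate 6 and at 165 CPM in DC371739 replicate 7, against 51.6 to 111 CPM in the other 12 libraries. Sult1a1, Sult1b1 and Sult1c2 were each higher in the 3 deep libraries than in all others, so the high values of both groups came from these libraries. Over 14 libraries none of the 4 had an unadjusted p under 0.05 or passed with DESeq2 (20.4% and 6.29% of all genes).

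Glutathione transferases had a negative estimate for 14 of 17 genes over 14 libraries (53.4% of all genes). There 0 passed with edgeR (1.85% of all genes) and 2 (Gstm7 and Mgst3) with DESeq2 (6.29%). An unadjusted p under 0.05 was found for 3 of the 17 (20.4% of all genes). Over the 11 libraries 3 fell (10.5% of all genes). The 3 were Mgst2, Mgst3 and Gstm7. Mgst3, a microsomal transferase and peroxidase, ran from 260.1 to 351 CPM (median 286) in control and from 199.99 to 277 CPM (median 233) in DC371739 libraries. Every one of the 7 DC371739 values was under the control median, and the log2 fold change was -0.31 (SE 0.10), with an adjusted p of 0.0944 over 14 libraries and 0.0346 over the 11. Mgst2, which can also make leukotriene C4, ran from 101 to 127 and from 89.7 to 110.4 CPM, with -0.21 (SE 0.08, adjusted p = 0.143) and, over the 11, -0.24 (adjusted p = 0.0397). Leaving out single libraries ended the Mgst2 call over the 11 in 7 of 11 cases and the Mgst3 call in 6: both without control replicates 2, 3 and 5 and DC371739 replicates 3, 5 and 6, and Mgst2 also without DC371739 replicate 2 (adjusted p up to 0.104 and 0.0988). Their abundant relative Mgst1 was at -0.14 (interval -0.38 to 0.09).

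The 6 Gstm genes form a cluster on KB708191.1 (8475666 to 8622733), in the order Gstm5, Gstm7, Gstm6, Gstm2, Gstm1 and Gstm4, with gaps of 6992 to 38213 bases. Gstm7, the rarest GST, ran from 1.43 to 2.67 CPM in control and from 0.689 to 1.72 CPM in DC371739 libraries, and all 7 DC371739 values lay below the control median. Its estimate of -0.80 (SE 0.21) just failed over 14 libraries (adjusted p = 0.0567); over the 11 it fell by 0.73 (adjusted p = 0.0298), and not when control 2, 3 or 5 or treated replicate 3 was left out (adjusted p up to 0.0783). Its neighbours Gstm6 and Gstm5 were at -0.06 and -0.00, and the abundant Gstm1 and Gstm2 at 0.01 (SE 0.15) and -0.14 (SE 0.22). Gstm2 ran from 1612 to 3277 CPM in control and from 1023 to 3247 CPM in DC371739 libraries; its lowest value, like the lowest of Gstm1 (733 CPM) and of Cyp4b1, was in DC371739 replicate 2. Reads of these near relatives may be shared among them.

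Gsta3, of the alpha class, and Gstz1, which also breaks down tyrosine products, had estimates of -0.14 (SE 0.13) and -0.16 (SE 0.08) and did not pass (adjusted p = 0.565 and 0.266). The widest spread of the whole set belonged to Gstt3, a theta class transferase: it ran from 38.2 to 309 CPM over the controls, an 8.10-fold range, and from 77.8 to 354 CPM over DC371739 samples. Its estimate of 0.49 had an SE of 0.37 and an interval from -0.33 to 1.30, wide enough to hold both 0 and 1 on the log2 scale. Gstt1, which ends 1618 bases before Gstt3 begins on KB708151.1, was lowest in the same libraries, control replicate 4 (52.5 CPM) and DC371739 replicate 5 (58.4 CPM). By contrast, Mgst2, Fmo1 and Gstz1 varied by no more than 1.33-fold within either group.

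**Figure D4:**
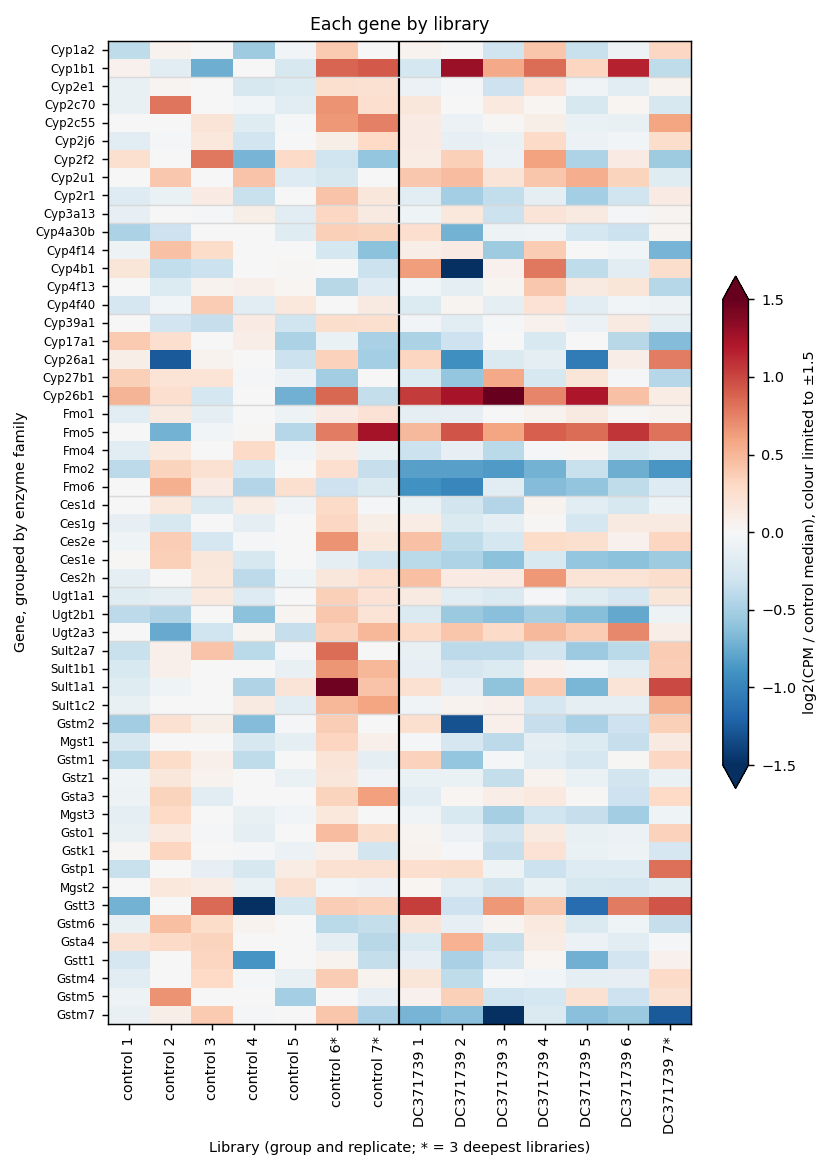
Genes (rows, by family) in each of 14 libraries (columns): colour is log2 of CPM over the control median of that gene, limited to 1.5 either way, and asterisks mark the 3 deepest libraries. The Fmo2, Ces1e and Gstm7 rows are mostly blue on the right, Cyp26b1 and Fmo5 red. Control 6 and 7 share red Sult1a1, Sult1b1 and Sult1c2 rows with DC371739 7.

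The receptors and factors that drive these genes, from a list of 20 of which 16 were tested, had 0 called genes over 14 libraries with edgeR (5 at an unadjusted p under 0.05, 3 called with DESeq2) and a median log2 fold change of 0.00. Over the 11, 3 rose and 2 fell. The following shares over all genes stand beside this and the lists and markers below. Over 14 libraries 1.85% were called with edgeR, 6.29% with DESeq2, and 20.4% had an unadjusted p under 0.05. Over the 11, 11% were higher and 10.5% lower. The 3 classical receptors were looked up whatever their p. PXR (Nr1i2) was at 258 ± 20.4 CPM in control and 270.1 ± 32.7 in DC371739 samples (0.06, SE 0.09), AHR at 38.8 ± 11.2 and 35.2 ± 6.86 (-0.14, SE 0.18). CAR (Nr1i3) was at 212 ± 33.4 and 179 ± 16.4 CPM; its -0.24 did not pass over 14 libraries (adjusted p = 0.189) and passed over the 11 (-0.32, adjusted p = 0.0399). The smallest p over 14 libraries were those of Ppara (0.75, adjusted p = 0.0734), Hnf4a (0.48, 0.0795) and Cebpa (-0.65, 0.0839), factors that set hepatocyte gene expression in general. Over the 11 libraries Ppara rose by 1.06 (adjusted p = 0.00402) and Hnf4a by 0.52 (0.00504), and Cebpa fell by 0.86 (0.00930).

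Genes of electron supply and haem synthesis (15 tested) had 0 called over 14 libraries with edgeR (5 at an unadjusted p under 0.05, 2 with DESeq2) and a median of -0.04; over the 11, 4 rose and 5 fell. Por, the reductase that feeds electrons to all microsomal P450s, was at 424 ± 64.6 CPM in control and 579 ± 111 in DC371739 samples, a change of 0.45 (SE 0.13, adjusted p = 0.0754); it rose over the 11 (0.44, adjusted p = 0.00843). The haem synthesis enzyme Alad stood at -0.21 (adjusted p = 0.204) and fell over the 11 (-0.29, adjusted p = 0.0307). Enzymes of this pathway went both ways over the 11. Ppox also fell (-0.40, adjusted p = 0.0211), while Cpox (0.45, 0.00529) and Fech (0.33, 0.00729) rose. A list of genes around cofactor supply for conjugation (13 tested, median 0.11) had 0 called with edgeR or DESeq2. In it 3 had an unadjusted p under 0.05 and, over the 11, 4 were higher. Gclc, of glutathione synthesis, was at -0.27 (adjusted p = 0.178). Sumf1 and Bpnt1, which do not themselves make a cofactor, were at 0.36 (0.203) and 0.26 (0.217). Sumf1 and Bpnt1 rose over the 11 (0.46 and 0.38, adjusted p = 0.0108 and 0.0195).

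Other drug-metabolizing enzymes (29 tested, median -0.08) had 0 called over 14 libraries with edgeR, 1 at an unadjusted p under 0.05, 1 called with DESeq2 and 6 higher over the 11. The lysosomal glucuronidase Gusb stood at 0.15 (adjusted p = 0.256) and the sulfatase Arsb at 0.36 (0.308); Arsb rose over the 11 (0.64, adjusted p = 0.0117). Of 14 drug transporters tested (median 0.19) 0 passed with edgeR or DESeq2, 1 had an unadjusted p under 0.05 and 2 rose over the 11; Abcc4, Abcc1 and Abcc2, exporters of conjugates, stood at 0.59 (0.140), 0.51 (0.288) and 0.16 (0.391).

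Several P450s are known to fall during inflammation, so genes of the acute phase and cytokines were measured beside them. Of 18 tested, Steap4 rose (1.40, SE 0.29, adjusted p = 0.0291), 17 had a positive estimate and the median was 0.31; over the 11 libraries 5 rose. Tnf (1.08) and Stat3 (0.75) did not pass over 14 libraries (adjusted p = 0.0609 and 0.0681) and rose over the 11 (1.05 and 0.80, adjusted p = 0.00538 and 0.0177). Summed over the list, the level ran from 21868 to 36167 CPM in control and from 23456 to 35560 CPM in DC371739 libraries, which overlapped. Macrophage markers (17 tested) had 3 that rose (1.24% of all genes), Laptm5, Ctss and Mpeg1, and none that fell. They did not all go 1 way: 13 had a positive estimate and 4 a negative one. The negative ones were Cd163 (-0.55), C1qa (-0.26), C1qb (-0.07) and C1qc (-0.06), none of them called. Of the 17, 10 had an unadjusted p under 0.05 (20.4% of all genes), and the median was 0.36. Over the 11 libraries 6 of the 17 rose (11% of all genes, median of all 17 0.31), and with the class term 9 (5.62% of all genes). Their summed level was 895 to 1315 CPM in control and 998 to 1534 CPM in DC371739 libraries. The 9 hepatocyte markers had a median of -0.05 and 0 called in either fit (1 at an unadjusted p under 0.05 over 14). Of the hepatocyte markers of the pericentral zone, where many P450s are expressed, 6 were tested, with a median of -0.25, 0 called in either fit, 1 at an unadjusted p under 0.05 over 14, and 1587 to 2971 CPM in control against 1761 to 2754 CPM in DC371739 libraries. Of the periportal ones 10 were tested (median 0.04, 0 called over 14 libraries, 1 at an unadjusted p under 0.05, 2 higher over the 11). The part of these cell markers in the differences of Fmo2, Ces1e and the genes called over the 11 libraries was not tested.

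For the other cell types, endothelial (10 tested), cholangiocyte (6) and lymphocyte markers (7) had medians of 0.13, 0.23 and 0.12 and 0 called over 14 libraries (4, 0 and 3 at an unadjusted p under 0.05). Over the 11, 4 endothelial and 2 lymphocyte markers rose and 1 cholangiocyte marker fell. All of these lists were short, and their counts are given only as a description of the tissue.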

How the data were processed

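Total RNA of 14 liver samples was sequenced. The submitters' processing notes name edgeR without a version, featureCounts 2.0.0 and HISAT2 2.2.1. Build, annotation and strand setting: not given in the sources used here. Whole-number counts were deposited by the authors for 22283 genes, and their FPKM values for 10023 genes with a symbol. Each deposited FPKM equals the count over gene length and 1 constant per library (largest relative deviation 1.3e-07). From the authors' deposited table, the log2 fold change and the adjusted p-value were also read.

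Counts were tested with edgeR 4.0.16 (R 4.3.3): TMM scaling, default filter (minimum count of 10), robust quasi-likelihood F-test on treatment alone, Benjamini-Hochberg adjustment over all 12166 genes (12249 over 11 libraries), called at an adjusted p under 0.05. Standard errors are the log2 fold change over the square root of F; 95% intervals used 12 residual degrees of freedom. CPM are TMM-scaled and per 1e+06 counts. Alternatives were other scalings and filters, DESeq2 1.42.0, limma-voom (limma 3.58.1) with sample quality weights, a replicate block, a library class term, and each library left out. The test was checked on simulated counts. No 2 libraries of a group agreed within sampling noise (in 42 pairs, chi-square over its degrees of freedom was at least 10.6). Members and lists were chosen with earlier results of these data known. Genes named are the 10 most abundant members, the most abundant and the smallest p of each family, called members, the 12 of smallest p over 11 libraries, receptor targets, and the 3 of smallest p per list. Other genes (neighbours, wide spreads, receptors, haem synthesis enzymes, macrophage markers called or negative) were named after their values were seen. Some genes that the rule names are not reported here. The class interaction, and the alternatives for the lists and the median, were chosen after seeing the data.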

Additional observations from a re-analysis of the deposited data

Results flagged for a closer look

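In 110 comparisons of a gene's lowest or highest library with the rest of its group of 7, a single library stood apart in 7; chance alone flags about 1 in 20 groups. DC371739 replicate 7 was the library in 4 of them: Cyp2c55 at 823 CPM against 506 to 595 in the other 6 treated libraries, Gstp1 at 219 against 98.5 to 148, Sult1c2 at 21.0 against 12.2 to 15.3, and Sult2a7 at 384 against 203 to 275. This is 1 of the 3 deepest libraries. Control replicate 6, another of these 3, stood apart in Sult1a1, at 228 CPM against 60.4 to 111. Fmo2, which fell with treatment, stood at 6.20 CPM in DC371739 replicate 5 against 4.27 to 4.80 CPM in the other 6. Gstm5 was at 7.63 CPM in control replicate 2 against 3.38 to 4.83 CPM.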

How the results depend on the processing

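The 2 calls over 14 libraries became 1 with no scaling, 5 with DESeq2, 13 with limma-voom, 8 with a library class term and 10 without the 3 deepest libraries; leaving out 1 library gave 0 to 5. The 10 calls over the 11 libraries became 6 to 15 with 1 more left out. Called list genes, in the order receptors, electron donors and haem, cofactors, other enzymes, transporters and acute phase, were 3, 2, 0, 1, 0 and 5 with DESeq2, 6, 8, 4, 6, 3 and 7 with limma-voom, 2, 3, 2, 2, 0 and 4 with the class term, and 5, 9, 4, 6, 2 and 5 without the 3 deepest. Upper-quartile scaling and no scaling each gave 1 for other enzymes. Leaving out 1 library gave 0 to 3, 0 to 2, 0 to 1, 0 to 1, 0 and 0 to 6. The causes were not tested. The median of the 55 ran from -0.11 to -0.05 with 1 library left out. The members' median deviation had an SD of 0.147 over the control libraries (log2). That is a spread between libraries, not that of the fitted median. Of 671 alternative values for 28 named members, 582 kept direction and side of the threshold, 33 passed newly, 17 passed no longer and 39 changed sign, all in uncalled genes near 0. Cyp2e1 was 0.0124 with limma-voom and 0.0459 without the 3 deepest. With upper-quartile scaling, no scaling, limma-voom, the class term and without the 3 deepest, Cyp39a1 was 0.00723, 0.0250, 0.107, 0.0297 and 0.139, Cyp3a13 0.00761, 0.0180, 0.0508, 0.0156 and 0.0710, and Fmo1 0.00597, 0.0180, 0.0465, 0.00849 and 0.0469. Cyp4a30b was 0.0214 without the 3 deepest. Gstm1 was -0.0334 with limma-voom and -0.0135 without the 3 deepest. With 1 library left out, Cyp39a1 ran from -0.0618 to 0.0454, Cyp3a13 from -0.0464 to 0.0392, Fmo1 from -0.0487 to 0.0193 and Gstm1 from -0.0564 to 0.0878.

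With the replicate number as a block, 0 of 55 passed over 14 libraries (14 at an unadjusted p under 0.05; 0.0658% of all genes passed), 5 over the 11, and 0 acute phase genes; Cyp39a1 was 0.0036. Same-numbered samples did not deviate together in every pair: r was 0.548 for number 7, whose libraries are both among the 3 deepest, 0.121 for number 3 and -0.131 to 0.032 for the other 5. In 0 of 7 pairs were both samples the best match of each other. Differences between the deep and the other libraries could mask a weaker pairing, so this does not exclude one.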
